A study of Mus musculus with 3 samples.

Results

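GATA4 occupancy in adult mouse stomach was examined at 9 core genes of the Hedgehog pathway: the ligands Shh, Ihh and Dhh, the receptor Ptch1, the signal transducer Smo, the transcription factors Gli1, Gli2 and Gli3, and the extracellular antagonist Hhip. A peak was taken as belonging to one of these genes when the authors' HOMER annotation, which credits each peak to the gene with the nearest transcription start site (TSS), named that gene. This gave 36 of the 50869 deposited peaks, spread over 8 of the 9 genes; Hhip had none. Stomach mucosa came from adult mice of 10 to 12 months and strain G4fb/fb R26 Bira/Bira. FlagBio GATA4 was recovered on streptavidin beads in 2 pull-down libraries, and 1 input library of chromatin without pull-down, from the same strain, served as background. No group without the tagged GATA4 or without BirA was analysed here, so pull-down without tagged GATA4 was not measured. In such mice the Gata4 gene itself carries the tag, and BirA, a biotin ligase, is expressed widely from the Rosa26 locus, so all GATA4-bearing cells of the mucosa contribute. The labels do not say whether the pull-downs came from separate animals.

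Hedgehog ligands are secreted proteins that bind the receptor Ptch1 on neighbouring cells. Binding lifts the block that Ptch1 places on the membrane protein Smo, and Smo then shifts the Gli factors from repressor to activator forms, with Gli1 and Ptch1 themselves among the targets. In the stomach, Shh and Ihh are made by the epithelium, and most of the responding cells lie in the mesenchyme beneath it.

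GATA factors recognise sequences built around GATA, so the promoter letters of the members are shown before the peaks. RefSeq promoter windows, running from 250 bases before to 50 after the start in build GRCm38.p6, were matched for 7 of the 9 members (Ihh, Dhh, Ptch1, Smo, Gli2, Gli3 and Hhip). Searched on both strands were AGATAA and its variant AGATAG, and likewise TGATAA with its variant TGATAG, and 0 of the 7 windows held any of these 6-letter motifs, against 29.8% of all 32851 windows. The core GATA, which lies inside each of these motifs, was present in 2 of the 7 windows, those of Ihh and Dhh, against 57.9% of all windows. Member windows were richer in G and C (61.7% to 76.3%) than the median window (52.7%), and held 12 to 47 CpG dinucleotides against a median of 7. A match here is a run of letters and not a bound site. The peaks are in build mm9 and positions were not converted, so whether a window lies under a peak was not tested by coordinates.

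The 250 bases before the start are shown for the ligands whose windows hold the core, in capitals, and for Ptch1, the receptor with as many credited peaks as any member, whose window holds none. Ptch1 has 2 annotated start sites 7.72 kb apart, and its window cannot cover both. Which start the window belongs to was not determined, and the promoter of the other was not searched. All 3 genes lie on the minus strand and are written 5′ to 3′ on that strand. Ihh is chr1:74951673-74951922 with the core 52 bases before the start, Dhh is chr15:98898541-98898790 with the core on the opposite strand (TATC) 220 bases before the start, and Ptch1 is chr13:63565736-63565985.
Ihh: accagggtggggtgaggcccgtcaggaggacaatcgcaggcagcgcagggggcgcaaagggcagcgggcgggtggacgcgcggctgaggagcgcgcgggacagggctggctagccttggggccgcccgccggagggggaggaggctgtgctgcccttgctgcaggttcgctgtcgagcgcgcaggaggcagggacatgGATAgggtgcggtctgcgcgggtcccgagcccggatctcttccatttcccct
Dhh: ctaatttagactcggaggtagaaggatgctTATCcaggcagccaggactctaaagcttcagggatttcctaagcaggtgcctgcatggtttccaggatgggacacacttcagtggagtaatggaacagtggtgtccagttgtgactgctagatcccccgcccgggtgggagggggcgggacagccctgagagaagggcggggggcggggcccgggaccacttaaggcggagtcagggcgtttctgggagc
Ptch1: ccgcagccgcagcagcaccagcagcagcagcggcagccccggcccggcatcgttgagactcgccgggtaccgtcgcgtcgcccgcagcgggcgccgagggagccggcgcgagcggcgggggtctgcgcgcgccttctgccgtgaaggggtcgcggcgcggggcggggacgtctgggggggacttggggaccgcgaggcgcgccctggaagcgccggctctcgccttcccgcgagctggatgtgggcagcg

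All peaks were called by the authors on the 2 pull-down libraries pooled against the input, so each peak has a single value with no replicate error, and differences between peaks could not be tested. Fold enrichment is the authors' value: pileup at the summit plus 1 over the local input level plus 1. The input level was worked back from pileup and enrichment. Plus 1, it was never below 2.98 among the peaks credited to members, and many shared that lowest value. Between peaks at that value, enrichment only follows the pull-down tags. Of 59610626 pull-down tags and 28116789 input tags, 38770530 and 23023152 were kept after removal of tags at the same position. Pull-down tags at a summit were read back from the scaled pileup, and the exact Poisson intervals given for them cover counting error only. As a check of the tissue label, 11 of 12 gastric epithelium marker genes had a credited peak within 10 kb of the TSS. Of the mesenchyme and smooth muscle markers, 6 of 12 did, and both counts stand against 64.4% of all protein-coding genes. The 11 include Tff1, whose strongest such peak lay on chromosome 5, while that of Tff2 lay on chromosome 17. Whether the Tff1 start is correctly placed was not checked. Peaks are no measure of expression, and in a mixed tissue they cannot be assigned to a cell type.

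GATA4 peaks lay close to nearly the whole core pathway. A credited peak was found within 10 kb of the TSS for 8 of the 9 members, against 64.4% of 21031 protein-coding genes, and within 1 kb for 7, against 57.4%. The count was 8 within 50 kb (background 70.9%) and 8 at any distance (background 73.7%). For peaks of high rank the share was close to the background: 2 members, Ihh and Shh, had one among the 10% with the highest −log10 q-value in the list, against 19.7% of all genes, while 7 had a peak of at least 5-fold enrichment, against 46.6%. At least 6 credited peaks were found for 3 members, namely Shh, Ptch1 and Ihh (background 8.47%), and Shh and Ptch1 had 8 each (background of at least 8, 4.4%). With 9 members these shares carry wide counting error. Peaks under 1 kb apart were counted separately for members and background alike. Several Ptch1 peaks lay that close together, and with such peaks counted once Ptch1 would have fewer than 6. Counting such peaks once lowered the 36 credited peaks to 30. The background was not recounted in that way.

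**Figure D1:**
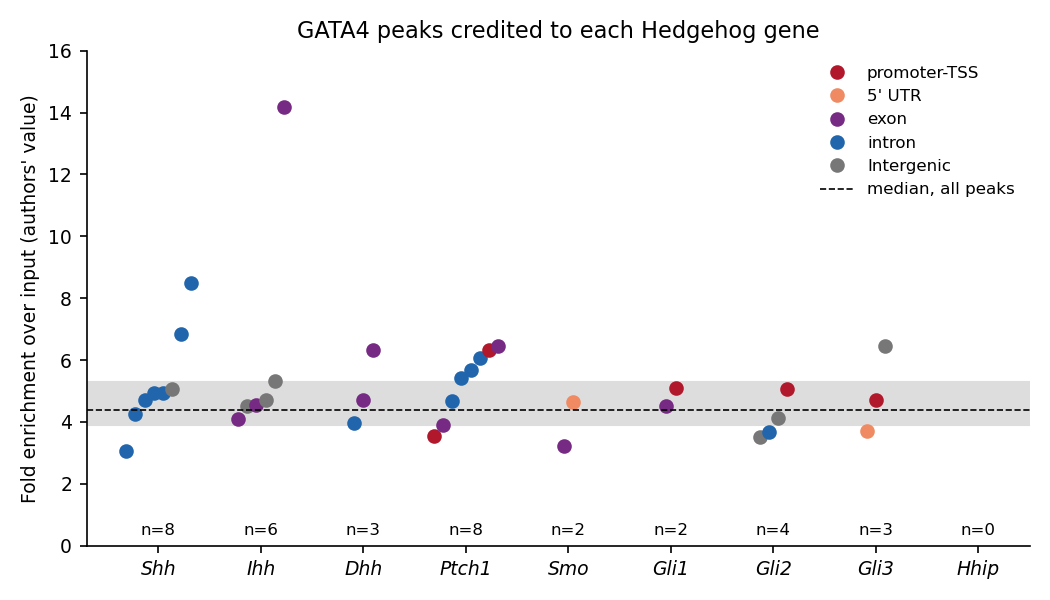
Fold enrichment over input (authors' value, y axis) of every GATA4 peak credited to each of the 9 Hedgehog genes (x axis), coloured by the class of the annotation; the dashed line is the median of all peaks (4.37) and the grey band their quartiles (3.90 to 5.28). A single Ihh peak at 14.19-fold stands above all others, 2 Shh peaks follow at 8.5 and 6.85, and Hhip has none.

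Over the 36 peaks the median enrichment was 4.72-fold (quartiles 4.12 and 5.48), against 4.37-fold for all peaks (3.90 and 5.28). The summits held 16 to 70 pull-down tags with a median of 24, against a median of 22 for all peaks, so a typical Hedgehog peak was an ordinary peak of the list. Exons held 9 of the 36 (25%, against 12.7% of all peaks) and introns 13 (36.1% against 31.3%). Intergenic peaks numbered 7 (19.4% against 31.2%), promoter peaks 5 (13.9% against 16.6%) and 5′ UTR peaks 2 (5.56% against 3.70%). Repeats were the annotation of 4 peaks (11.1% against 19.5%), and in 7 peaks the local input level plus 1 was above 3.5 (19.4% against 21.1%).

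Ihh, the Indian hedgehog ligand, carried the strongest of the peaks credited to members. It lay at chr1:74996263-74998702 (mm9), was 2440 bases long and covered the TSS, running from 456 bases upstream to 1983 bases downstream, and was annotated to exon 1 of 3. Its enrichment was 14.19-fold, with 70 tags at the summit (95% interval 54.6 to 88.4) over an input level plus 1 of 3.0. Among all 50869 peaks it ranked 70 by enrichment, 101 by −log10 q-value (33.92) and 17 by length, and 99.8% of the 16139 peaks within 1 kb of a TSS were weaker. Its summit lay 1780 bases downstream of the TSS, towards the downstream end of the peak, and the core 52 bases before the start shown above therefore says nothing about where the signal was highest.

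The other 5 Ihh peaks had 4.11- to 5.31-fold enrichment, the highest of them just above the upper quartile of the list (5.28). Inside the gene, a peak in exon 3 of 3 (5.24 kb downstream) had 4.55-fold enrichment with 22 tags, and another 3.39 kb downstream had 4.11-fold with 26 tags over a higher input level plus 1 of 4.0. Upstream, 3 intergenic peaks stood 8.21, 11.4 and 13.1 kb from the TSS at 4.52-, 4.72- and 5.31-fold. The nearest of these was annotated to an L2a repeat. Of 20 peaks within 100 kb, 6 were credited to Ihh, and none of the other 14 exceeded 14.19-fold. The nearest peak credited to a neighbour, Cfap65, lay 9.82 kb downstream of the Ihh start at 6.04-fold.

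Shh, the Sonic hedgehog ligand, had 8 credited peaks, all upstream of its TSS and none within 1 kb. The strongest pair stood about as far out as 100 kb: chr5:28890000-28890319, 96.5 kb upstream, had 8.5-fold enrichment with 41 tags (29.4 to 55.6), and chr5:28892733-28892911, 99.2 kb upstream, had 6.85-fold with 34 tags (23.5 to 47.5). A gap of 2.41 kb separated them, and both were in the top 10% of the list. Of the 17568 peaks lying 10 to 100 kb from a TSS, 98.8% were weaker than the first and 96.4% weaker than the second. Their tag intervals overlap, so their order is not settled by counting error.

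The remaining 6 Shh peaks were weaker. The nearest, 2.85 kb upstream, had 4.92-fold enrichment with 23 tags. Peaks at 18.2 and 29.2 kb upstream had 4.72- and 4.92-fold enrichment, and a peak at 34.1 kb had 3.05-fold over an input level plus 1 of 5.0, the highest input level of any Shh peak. Farther out, peaks at 137 and 329 kb upstream had 4.26- and 5.08-fold enrichment. The peaks at 18.2 and 137 kb were annotated to L1Md_T repeats, a young LINE family.

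The crediting by nearest start divided the Shh locus between 2 genes. The noncoding transcript 9530036O11Rik starts 117 bases inside Shh on the opposite strand and runs back across the Shh start, so the transcripts overlap there, and 7 of the 8 Shh peaks lay in its introns 1 and 2. In turn, 5 peaks annotated to exons or introns of Shh itself were credited to 9530036O11Rik. The strongest was in Shh exon 3 of 3, 8.91 kb downstream of the Shh start, at 7.30-fold with 35 tags, and was in the top 10% of the list. In Shh intron 1 the peaks 2.44 and 1.89 kb downstream had 6.91- and 3.72-fold enrichment, and in intron 2 those 7.90 and 6.93 kb downstream had 4.92- and 4.49-fold.

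A further peak near both starts, chr5:28793178-28793596, was also credited to 9530036O11Rik. It had 6.11-fold enrichment with 29 tags and spanned 45 to 463 bases downstream of the Shh TSS, also inside Shh, though its annotation was a promoter. Counted from the Shh start whatever the credited gene, 7 peaks lay within 10 kb, of which 1 was credited to Shh. Shh therefore had peaks along its body and just inside its start that the gene credit does not show, and without strand in the assay the peaks cannot be assigned to either transcript.

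**Figure D2:**
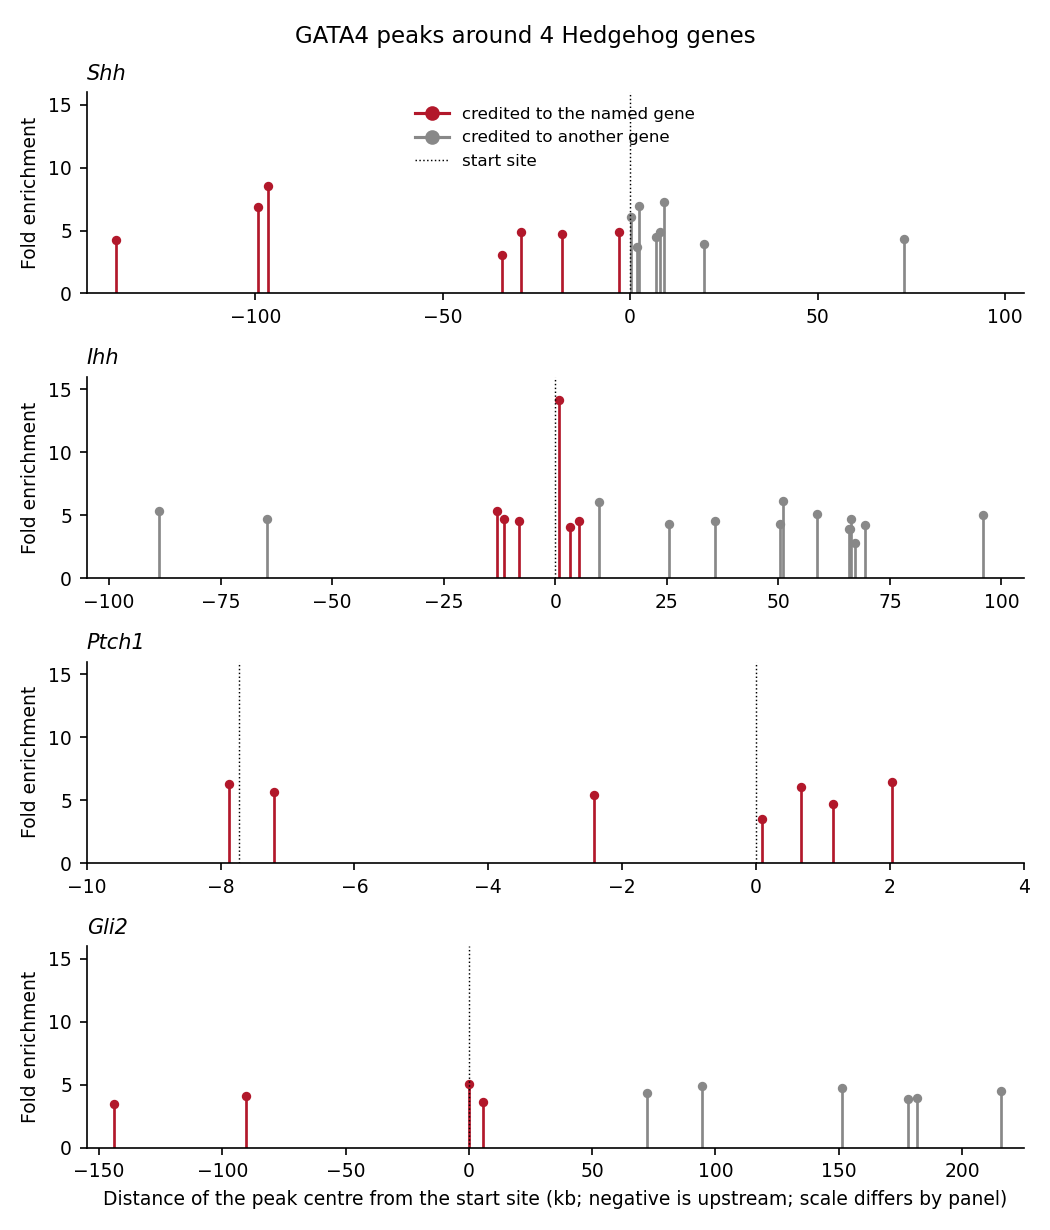
Fold enrichment (y axis) of peaks around Shh, Ihh, Ptch1 and Gli2 against the distance of the peak centre from the TSS in kb (x axis, negative is upstream, scale differs by panel); red peaks were credited to the named gene, grey ones to another gene, and dotted lines are start sites, of which Ptch1 has 2. The Shh peak 329 kb upstream and the Ptch1 peak 53.8 kb downstream lie outside the panels; the Ihh peak at 14.19-fold is centred 0.764 kb downstream of the start, while the highest Shh peaks are 96.5 and 99.2 kb upstream.

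Dhh, the Desert hedgehog ligand known for its roles in testis and nerve sheath, had 3 peaks, all inside the gene. The strongest was in exon 3 of 3, 4.27 kb downstream, at 6.31-fold with 30 tags. Exon 1 held a peak at 4.72-fold 0.504 kb downstream, and intron 1 a peak at 3.97-fold 2.63 kb downstream. Dhh thus had no credited peak over its TSS, and its strongest enrichment exceeded that of 65.6% of the 15498 genes with a peak. The ligands together accounted for 17 of the 36 peaks.

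Ptch1, the receptor that restrains Smo and is itself a Hedgehog target, had many peaks of moderate strength rather than a dominant one. Of its 8 peaks, 7 fell within 10.6 kb across its 2 annotated start sites, which are 7.72 kb apart. At the upstream start, a promoter peak covering the TSS had 6.31-fold enrichment with 30 tags, and a peak 0.53 kb downstream of it had 5.68-fold with 27. Between the starts, 2.42 kb upstream of the second, stood a peak of 5.42-fold.

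At the downstream start, the promoter peak had the most tags of any Ptch1 peak, 34 (23.5 to 47.5), yet the lowest enrichment, 3.53-fold, since the local input level plus 1 was 6.0. Just downstream in intron 1, peaks 0.667 and 1.15 kb from that start had 6.07- and 4.69-fold. In exon 2 of 24 a long peak of 1144 bases, 2.04 kb downstream, reached 6.47-fold with 31 tags, the highest enrichment of Ptch1. The eighth peak, in exon 23 of 24 and 53.8 kb downstream, had 3.90-fold with 18 tags. All 8 peaks found within 100 kb of a Ptch1 start were credited to Ptch1, and none was in the top 10% of the list.

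Smo, the transducer downstream of Ptch1, had 2 peaks, both within 1 kb of the TSS. The peak over the TSS and 5′ UTR had 30 tags and 4.64-fold enrichment, and the next, in exon 1 of 12, had 20 tags and 3.22-fold. Both stood on raised input, with levels plus 1 of 4.06 and 4.0. Among all peaks within 1 kb of a TSS, 34.7% were weaker than the first and 3.8% weaker than the second. A further peak in intron 9 of 11, of 4.32-fold, was credited to the neighbouring gene Ahcyl2. Smo had the lowest strongest peak of the 8 members, above 25.5% of genes with a peak, although by tags its strongest peak equalled that of Dhh.

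**Figure D3:**
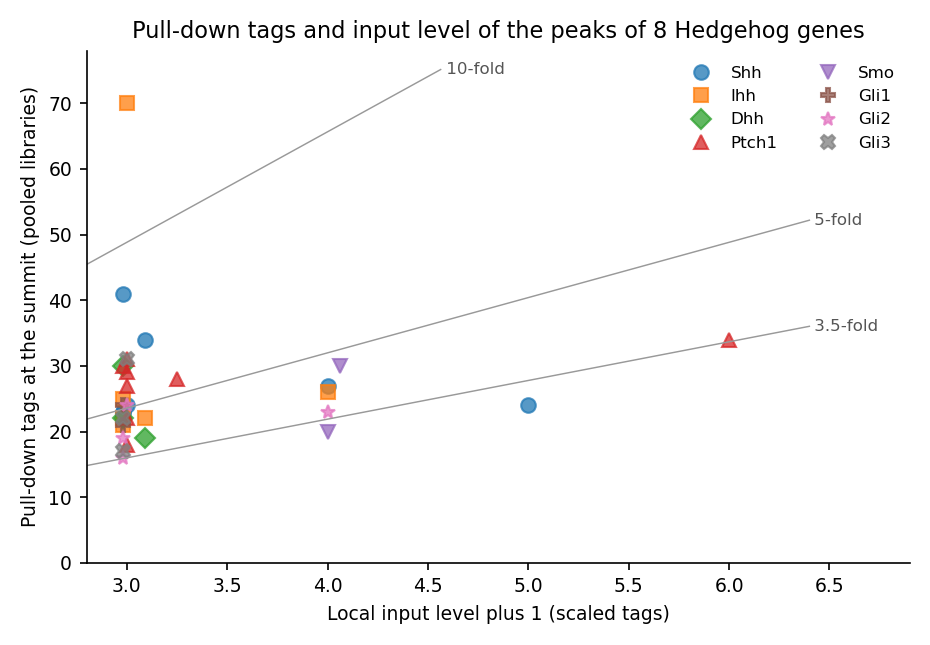
Pull-down tags at the summit, pooled over the 2 libraries (y axis), against the local input level plus 1 in scaled tags (x axis) for the 36 peaks of 8 Hedgehog genes, with one symbol per gene and grey lines of equal enrichment. The Ihh peak of 70 tags sits at an input level plus 1 of 3.0, and the Ptch1 promoter peak of 34 tags at 6.0, which places it near the 3.5-fold line.

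The Gli factors, the pathway's transcriptional effectors, had modest peaks at their starts. Gli1, an activator widely used as a readout of Hedgehog signalling, had a promoter peak centred 171 bases upstream at 5.11-fold with 24 tags and a second in exon 11 of 13 at 4.52-fold. Gli2, the main activator of the pathway, had a peak over its TSS at 5.08-fold with 24 tags and weaker ones 5.65 kb downstream in intron 1 (3.66-fold) and 90.5 and 144 kb upstream (4.12- and 3.52-fold). Gli3, which acts largely as a repressor, had a promoter peak 464 bases upstream at 4.72-fold and a 5′ UTR peak 263 bases downstream at 3.72-fold. The start-site peaks of all 3 Gli genes were thus between 3.72- and 5.11-fold, below the 14.19-fold peak of Ihh.

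Peaks far from the Gli genes need their annotation beside them. The strongest Gli3 peak, 6.47-fold with 31 tags, lay 211 kb upstream in an L1Md_F repeat. Inside Gli2, 6 more peaks of 3.90- to 4.92-fold were credited to Mir6346, a microRNA gene whose start lies closer to them. With Shh and Smo, 12 peaks in all were annotated to an exon or intron of a member but credited to another gene, beside the peak just inside the Shh start, which was annotated as a promoter. The order of the members by their strongest credited peak was Ihh at 14.19-fold, Shh at 8.5, Ptch1 and Gli3 at 6.47, Dhh at 6.31, Gli1 at 5.11, Gli2 at 5.08 and Smo at 4.64. The tag intervals of neighbours in this order overlapped throughout, though narrowly between Ihh (54.6 to 88.4) and Shh (29.4 to 55.6). The median over the 8 members was 6.39-fold, against 5.51-fold for the strongest peak of all genes with a peak. The members had a median of 3.5 peaks each, against 2 for all genes with a peak. The strongest of more peaks tends to be higher, and the medians were not adjusted for this.

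Hhip, the membrane-anchored antagonist that binds Hedgehog ligands and is a pathway target, had no credited peak. The lowest summit in the list had 14 tags, so weaker enrichment at Hhip would not be listed, and the absence is from this list at this depth.

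Beyond the core, 36 further genes of the pathway were examined by role. Of these, 31 (86.1%) had a credited peak within 10 kb of the TSS, against 64.4% of protein-coding genes. For 6 of the 36 the strongest such peak was in the top 10% of the list. A top 10% peak at any distance was found for 19.7% of protein-coding genes, and the share within 10 kb was not computed. The median strongest enrichment was 5.88-fold, against 5.51-fold for the 13540 genes with such a peak. By role, the counts were 4 of 5 genes for ligand processing and release, 4 of 5 for receptors and co-receptors, 8 of 10 for cilium and transduction, 7 of 7 for the kinases and turnover factors of Gli proteins, and 8 of 9 for reported targets. These genes were chosen with earlier results known, and the difference from the background was not tested.

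The highest value belonged to Foxf2, a mesenchymal forkhead factor, with 8.30-fold at 5.95 kb upstream. Then came the Gli kinases Gsk3b (8.10-fold, 0.438 kb from the TSS) and Prkaca (7.70-fold, 0.041 kb), the secreted Scube1 (7.11-fold), whose family aids ligand release, and the anti-apoptotic target Bcl2 (6.91-fold). The ligand co-receptor Gas1 followed at 6.87-fold, the casein kinase gene Csnk1a1 at 6.78-fold and the cyclin gene Ccnd1 at 6.71-fold. None of these 8 values reached the 14.19-fold of the strongest Ihh peak, and among these peaks, all within 10 kb, only that of Foxf2 lay more than 5 kb from the TSS. The other 5 genes lacked a peak within 10 kb. Disp1, which releases ligand from the cell, had its nearest at 59.8 kb, the co-receptor Cdon at 15.5 kb and the ciliary receptor Gpr161 at 13.8 kb, while Stk36, a kinase, and Myocd, a smooth muscle coactivator, had none.

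**Figure D4:**
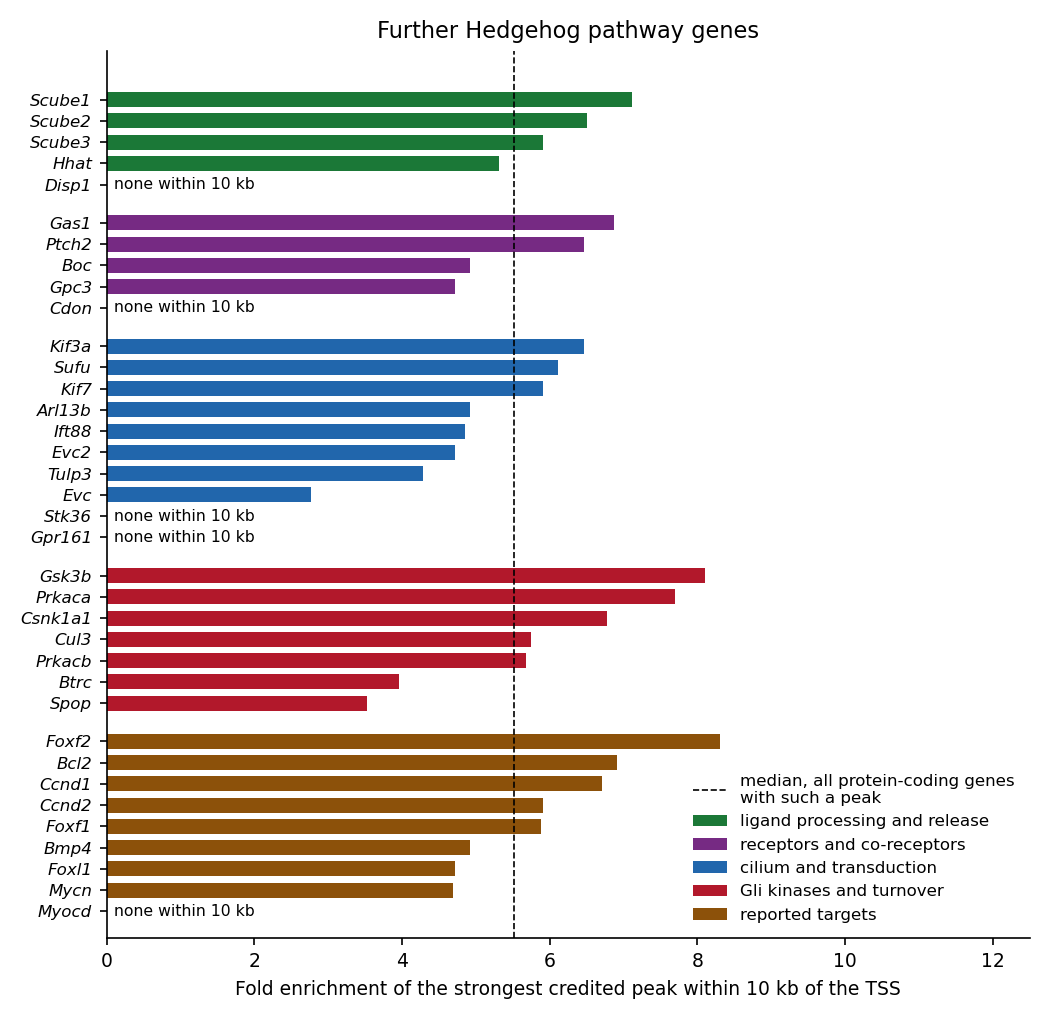
Fold enrichment of the strongest credited peak within 10 kb of the TSS (x axis, bars from 0) for 36 further Hedgehog pathway genes (y axis), coloured by role; the dashed line is the median of all protein-coding genes with such a peak (5.51). Foxf2 and Gsk3b have the longest bars at 8.30 and 8.10, and 5 genes have no such peak.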

How the data were processed

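Per the submitters' processing notes, the tools were Bowtie2, MACS2 and HOMER with build mm9. Per the file headers, MACS2 2.1.0.20140616 called peaks on both pull-down libraries pooled against 1 input, at a q-value limit of 0.05, keeping 1 tag per position, with tags of 74 bases extended to 161 bases and the pull-down scaled by the caller to the smaller input. The deposited values are the signal (pileup coverage at the summit), the fold enrichment ratio and −log10 q-value of each peak, and, from HOMER, a score and the distance to the nearest TSS. The column of −log10 q-values had lost its name and was identified because the deposited score matched it in all 50869 peaks. Other deposited values used were positions and lengths, per the file headers.

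From these, pileup was divided by the scaling of 0.594 to give tags (within 0.0084 of a whole tag); peaks were counted per credited gene; TSS positions and strands were worked out from peak centres and signed distances. The background was 21031 protein-coding genes. Top 10% means the 5086 peaks with the highest −log10 q-value, the lowest of them at 9.66. Ties at that value were broken by enrichment and then by peak name. By this rule the Shh intron 1 peak of 6.91-fold, also at 9.66, fell outside. Poisson intervals were exact at 95%. Python 3.11.15, pandas 2.3.3, numpy 2.4.6, scipy 1.17.1 and matplotlib 3.10.9 were used, and the scripts were tested on simulated data. No test between groups was possible: the libraries were pooled.

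The members and gene lists were chosen with earlier results of these data known. All 9 members were named with every peak; further pathway genes were named when among the 8 highest or without a peak within 10 kb, and other genes when they shared a peak with a member. The neighbour of Ihh was named after its values were seen. The peaks that flank Hhip are not reported here. Alternatives tried were the distance limit, the peak threshold, the crediting of peaks, the merging of close peaks, repeats, the ranking measure and the motif.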

Additional observations from a re-analysis of the deposited data

How the results depend on the processing

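The count of Hedgehog genes with a peak within 10 kb (8) was 7 to 8 under the other distance limits and when peaks annotated to a member's exons or introns, or near its own TSS, were credited to it. Raising the peak threshold lowered counts, since fewer peaks were counted: with top 10% peaks it was 1, with peaks of at least 5-fold 5. For the further pathway genes (31) these settings gave 6 and 19. Background shares at these thresholds were computed only for peaks at any distance (19.7% and 46.6% of protein-coding genes), so these counts within 10 kb have no matching background. The 36 credited peaks fell to 14 at 5-fold. With peaks annotated to exons or introns of members included there were 48, and without repeats 32. Counting peaks under 1 kb apart once gave 30. The median enrichment stayed between 4.70 and 4.72. Promoter windows with a motif numbered 0, and 2 with the 4-letter core. The top 10% count was 3, or 2 when ranked by pileup. Ihh, Shh and Ptch1 kept places 1, 2 and 3 by enrichment, pileup and q-value, with Gli3 sharing place 3 by enrichment and q-value. By pileup, Smo moved from 8 to 5, Gli1 from 6 to 7 and Gli3 from 3 to 4. By q-value, Gli2 moved from 7 to 6. The settings on own TSS and repeats were chosen after seeing the data. No paired analysis was possible because the authors pooled both pull-downs before calling, so no replicate could be left out. Depth limits the list to summits of 14 tags or more.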

Other observations

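The following genes were picked after their values were seen and are given as values only. Among the reported Hedgehog targets, Foxl1, a forkhead gene of gut mesenchyme, had 23 credited peaks, of which 3 lay within 10 kb of its TSS, and the strongest of those had 4.72-fold enrichment. Ccnd1 had 18 credited peaks with 11 within 10 kb, and Foxf2 had 9 with 8 within 10 kb. Lmbr1, which houses a long-range limb enhancer of Shh in an intron, had 2 peaks. Its promoter peak had 6.11-fold enrichment. A peak in intron 3 of 16 had 9.73-fold with 49 tags, higher than any peak credited to Shh, but was annotated to an L1Md_T repeat. Whether this intron 3 peak lies at the limb enhancer was not checked.

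Gastric epithelium markers had a median strongest enrichment of 6.91-fold within 10 kb, led by Gkn2 (8.25-fold), Gkn1 (7.86-fold) and Pgc (7.5-fold), and Cblif had no peak. This median includes the 6.51-fold Tff1 peak on chromosome 5, whose placing was not checked. Mesenchyme and smooth muscle markers had a median of 4.24-fold, with Cnn1 highest at 4.69-fold, and Acta2, Dcn and Lum had no peak. Whether the epithelial and mesenchymal markers differ was not tested.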
